A study of Mus musculus with 8 samples.

Results

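The genes described here are Rtn4r, Dgcr2, Gp1bb, Arvcf, Sept5, Zdhhc8, Pi4ka, Crkl and Lztr1. They are signalling and membrane genes of mouse chromosome 16 that lie in the stretch matching the human 22q11.2 region. They were picked out by symbol and make up 9 of the 32285 genes counted. Single-nucleus RNA sequencing (snRNA-seq) had been run on the petrous temporal bone (PTB), which houses the inner ear, and on the paraflocculus/flocculus (PF/F), the cerebellar lobules that grow into a cavity of that bone. Nuclei came from wild-type (WT) mice and from their Tbx1+/- littermates, which carry 1 disrupted copy of the transcription factor gene Tbx1, on a C57BL/6J background at postnatal day 5.5. Each of the 8 libraries pooled tissue from 5 mice, and each tissue and genotype had 2 libraries, numbered 1 and 2. The study used separate batches of animals, and the number is taken here as the batch, which the labels do not state. The altered allele is that of Tbx1, so all 9 genes are present in 2 copies in every library. A library that pools animals shows no spread between mice, and 2 libraries against 2 give an exact permutation test no p below 0.33.

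Microdeletion of 22q11.2 in people removes 1 copy of a set of neighbouring genes and raises the risk of heart, palate, immune, hearing and psychiatric disorders. TBX1 is the gene best known for the heart and ear features, and the genes described here are its neighbours. By role they form 4 groups. RTN4R, the Nogo receptor, holds back axon growth when it binds myelin proteins; DGCR2 is a transmembrane adhesion receptor, and GP1BB is a subunit of the platelet receptor for von Willebrand factor. ARVCF is a catenin of the p120 family that binds the tails of cadherins, and SEPT5 is a septin, a filament-forming GTPase found at vesicles and the cell cortex. ZDHHC8 attaches palmitate to proteins, which anchors them in membranes, and PI4KA makes the phosphatidylinositol 4-phosphate of the plasma membrane. CRKL is an adaptor downstream of receptor tyrosine kinases and integrins, and LZTR1 is the substrate receptor of a CUL3 ubiquitin ligase that lowers RAS proteins.

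On GRCm38, 7 of the genes lie on the centromeric side of Tbx1 (16:18580979-18590671, minus strand) and 2 on its telomeric side. Pi4ka (16:17280351-17406314, minus strand) was the farthest, with its start 1184.4 kb from that of Tbx1. Crkl (16:17451987-17487434, plus strand) and Lztr1 (16:17508688-17526333, plus strand) followed it. Dgcr2 (16:17839482-17898562, minus strand), Rtn4r (16:18127642-18152408, plus strand), Zdhhc8 (16:18220753-18235136, minus strand) and Arvcf (16:18348182-18407076, plus strand) lay between these and Tbx1. Gp1bb (16:18620317-18622403, minus strand) and Sept5 (16:18620502-18629954, minus strand) began 31.7 and 39.3 kb from the start of Tbx1, and they share sequence. Of the 2087 exonic bases of Gp1bb, 1902 (91.1%) are also exonic in Sept5 on the same strand, so a read from that stretch cannot be told apart between them, and the counts of both are uncertain. Overlaps on the opposite strand are short, with 63 exonic bases shared by Dgcr2 and Tssk1, 240 by Pi4ka and Tmem191c, and 60 by Pi4ka and Snap29.

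Among the members, Rtn4r and Gp1bb had the largest tissue differences in opposite directions, and their promoters are shown for that contrast, as the 250 bases before the start in RefSeq on GRCm38.p6, each read 5′ to 3′ on the gene's own strand. RefSeq promoters were matched for 8 of the 9 genes. In the Rtn4r promoter (chr16:18127392-18127641, plus strand) capitals mark each GGGCGG or its reverse complement CCGCCC, the core letters of a GC box, and in the Gp1bb promoter (chr16:18622404-18622653, minus strand) they mark each GATA or its reverse complement TATC.
Rtn4r: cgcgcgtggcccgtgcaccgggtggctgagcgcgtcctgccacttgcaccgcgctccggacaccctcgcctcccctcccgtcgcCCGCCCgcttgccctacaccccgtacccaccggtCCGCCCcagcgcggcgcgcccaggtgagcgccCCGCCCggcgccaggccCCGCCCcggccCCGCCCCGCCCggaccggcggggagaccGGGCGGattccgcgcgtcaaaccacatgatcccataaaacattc
Gp1bb: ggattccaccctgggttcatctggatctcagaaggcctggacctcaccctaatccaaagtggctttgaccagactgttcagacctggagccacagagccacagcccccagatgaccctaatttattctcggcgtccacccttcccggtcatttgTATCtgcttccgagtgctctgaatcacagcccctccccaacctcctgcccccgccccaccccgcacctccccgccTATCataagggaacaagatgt
The Rtn4r promoter held 77.2% G and C and 7 matches to the GC-box letters, a count reached by 135 of 32851 mouse promoters (0.411%), whereas 32.7% held at least 1. The Gp1bb promoter held 57.6% G and C and 2 matches to GATA, and 24.2% of promoters held at least as many. It lies within the body of Sept5. The Gp1bb promoter also held 1 match to the GC-box letters, and the Rtn4r promoter held 0 to GATA. Among the other matched members GC-box matches ran from 0 (Crkl) to 4 (Dgcr2), and a Pi4ka entry held 2 GATA matches. The shares are over all promoters and were not matched for G and C content. These matches describe letters and are not binding sites.

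Libraries held 66835028 to 88677309 unique molecular identifiers (UMIs, 1 per captured transcript) in PTB and 44713226 to 60627200 in PF/F, and the deposited annotation named 5981 to 9977 and 9153 to 13835 nuclei of them. The PTB annotation holds skeletal types alone, namely connective tissue (CT1 to CT4), chondrocyte progenitors (CP1 to CP6), chondrocytes, osteoblasts and osteoclasts. The markers checked ranked first in their own type wherever that type had enough nuclei to be ordered (Ctsk reached 4925 CPM in osteoclasts). Endothelial nuclei of PF/F were too few, and among the ordered types their markers Flt1 and Cdh5 were highest in meningeal nuclei. Pairs of libraries shared 11 to 60 annotated barcodes, at most 0.503% of the smaller library. Tbx1 itself read 38.9 and 39.4 CPM (counts per 1000000 UMIs of the summed nuclei) in the 2 WT bone libraries against 26.3 and 35.7 in Tbx1+/-, a fitted log2 change of -0.34 (SE 0.167, 95% interval -0.765 to 0.0841, adjusted p = 1, edgeR quasi-likelihood test). In PF/F it gave 4 and 10 UMIs in WT and 11 and 13 in Tbx1+/-. These tags lie at the 3′ end and in introns and need not cover the altered sequence.

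The first comparison asked in which tissue each gene was more abundant, over all annotated nuclei. Annotated bone nuclei were skeletal types alone, whereas those of PF/F spanned neural, glial, meningeal, immune and endothelial types. The comparison is therefore not one of whole tissues. Of the 9 genes, 4 were higher in PF/F (Rtn4r, Arvcf, Dgcr2 and Pi4ka) and 4 in PTB (Gp1bb, Zdhhc8, Sept5 and Crkl). Lztr1 did not pass the test, though it did with the library number added as a term. Over all 21176 genes tested, 76.7% passed the test without that term (39.8% higher in PF/F and 36.9% lower), so 8 of 9 is close to the background. The median log2 change over the members was -0.16, against 0.06 over all genes tested. In summed nuclei, fewer cells of a type and less RNA per cell cannot be told apart, and bone was pulverised before lysis whereas PF/F was not, so tissue and preparation cannot be told apart either.

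Rtn4r had the widest gap. Its levels were 0.891, 1.04, 0.912 and 1.29 CPM in the PTB libraries (WT 1, WT 2, Tbx1+/- 1, Tbx1+/- 2) and 5.86, 5.44, 6.62 and 6.28 CPM in the PF/F libraries in the same order. Every cerebellar library lay above every bone library, and the mean was 5.85 times higher in PF/F (log2 change 2.57, SE 0.141, adjusted p = 2.13e-07, edgeR). Arvcf ran from 15.7 to 18.2 CPM in PTB and from 22.0 to 26.3 CPM in PF/F without overlap (log2 change 0.47, SE 0.0782, adjusted p = 0.000412). Dgcr2 ran from 51.9 to 60.2 CPM in PTB and from 61.4 to 73.3 CPM in PF/F (log2 change 0.35, SE 0.0902, adjusted p = 0.00625). These are smaller shifts, and neither reached 1.5-fold. Pi4ka ran from 93.8 to 104.9 CPM in PTB and from 107.9 to 121.5 CPM in PF/F (log2 change 0.22, SE 0.0787, adjusted p = 0.0295). The Pi4ka call did not hold under every setting: it was lost with DESeq2's size factors (adjusted p = 0.0551), without a filter on low counts (0.064), without the 8% of nuclei richest in UMIs (0.156), and when any of 5 libraries was left out. These were WT 1 (0.117), WT 2 (0.077) and Tbx1+/- 2 (0.0824) of PTB and WT 2 (0.0725) and Tbx1+/- 2 (0.0712) of PF/F, by adjusted p for Pi4ka without each.

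On the bone side, Gp1bb read 0.937, 1.01, 1.63 and 0.858 CPM in the PTB libraries and 0.356, 0.637, 0.433 and 0.529 CPM in the PF/F libraries, in the order given for Rtn4r. All bone libraries lay above all cerebellar ones, by 2.27 times in the mean (log2 change -1.16, SE 0.284, adjusted p = 0.00444, edgeR). Zdhhc8 read 35.0, 31.6, 37.7 and 32.7 CPM in PTB and 19.3, 20.8, 16.3 and 19.1 CPM in PF/F, a mean 1.81 times higher in bone (log2 change -0.84, SE 0.105, adjusted p = 6.41e-05). Sept5 read 5.33, 5.82, 5.40 and 5.23 CPM in PTB and 3.46, 3.02, 3.47 and 3.16 CPM in PF/F, a mean 1.66 times higher in bone (log2 change -0.72, SE 0.105, adjusted p = 0.000192). These genes and Rtn4r, 4 of 9, passed the test with more than 1.5-fold, against 60.5% of all genes tested. Crkl was higher in bone by less (32.6 to 39.0 against 28.9 to 30.1 CPM, log2 change -0.30, SE 0.0776, adjusted p = 0.00565). Lztr1 overlapped between tissues, at 28.6 to 34.3 and 26.8 to 31.1 CPM (log2 change -0.16, SE 0.0796, adjusted p = 0.095). Lztr1 passed with the library number added as a term, and without the second Tbx1+/- bone library its adjusted p was 0.032.

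**Figure D1:**
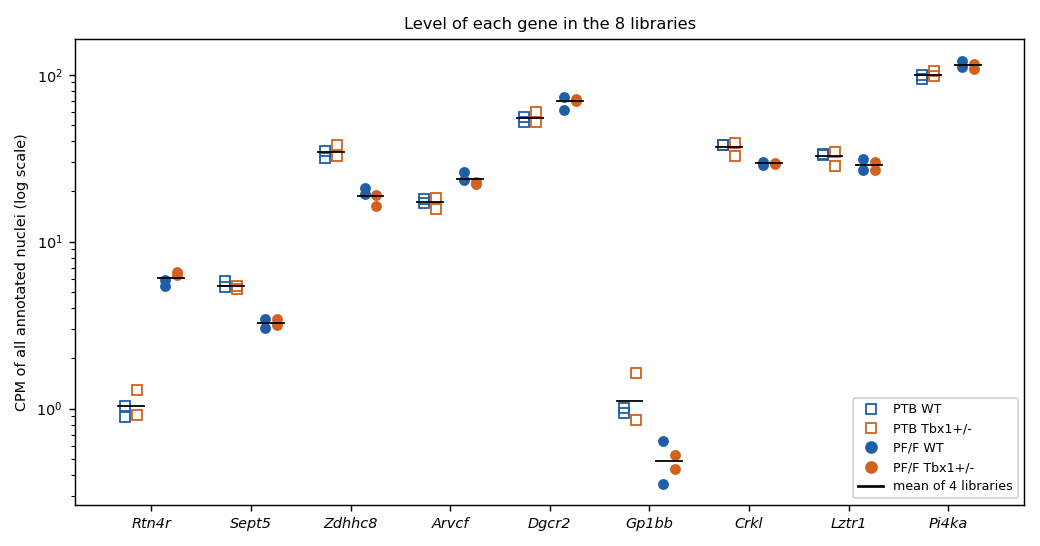
Level of each of the 9 genes in each library over all annotated nuclei, in CPM on a log axis, for PTB and PF/F, with WT and Tbx1+/- libraries marked apart (each point is 1 library). Rtn4r sits between 5.44 and 6.62 CPM in PF/F and at or under 1.29 CPM in PTB, and Lztr1 is the gene whose tissues overlap.

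Within each tissue the genes were then described over 15 bone and 14 cerebellar types with at least 20 nuclei in every library, ordered by the mean of the 2 WT libraries. These orders are descriptions and were not tested. Neighbouring types are called apart where their WT libraries did not overlap. Levels are not scaled by gene length and are compared between types, not between genes. The cerebellar progenitor type held 20 to 72 nuclei per library and the matured chondrocyte type 48 to 254, so their levels rest on few UMIs.

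**Figure D2:**
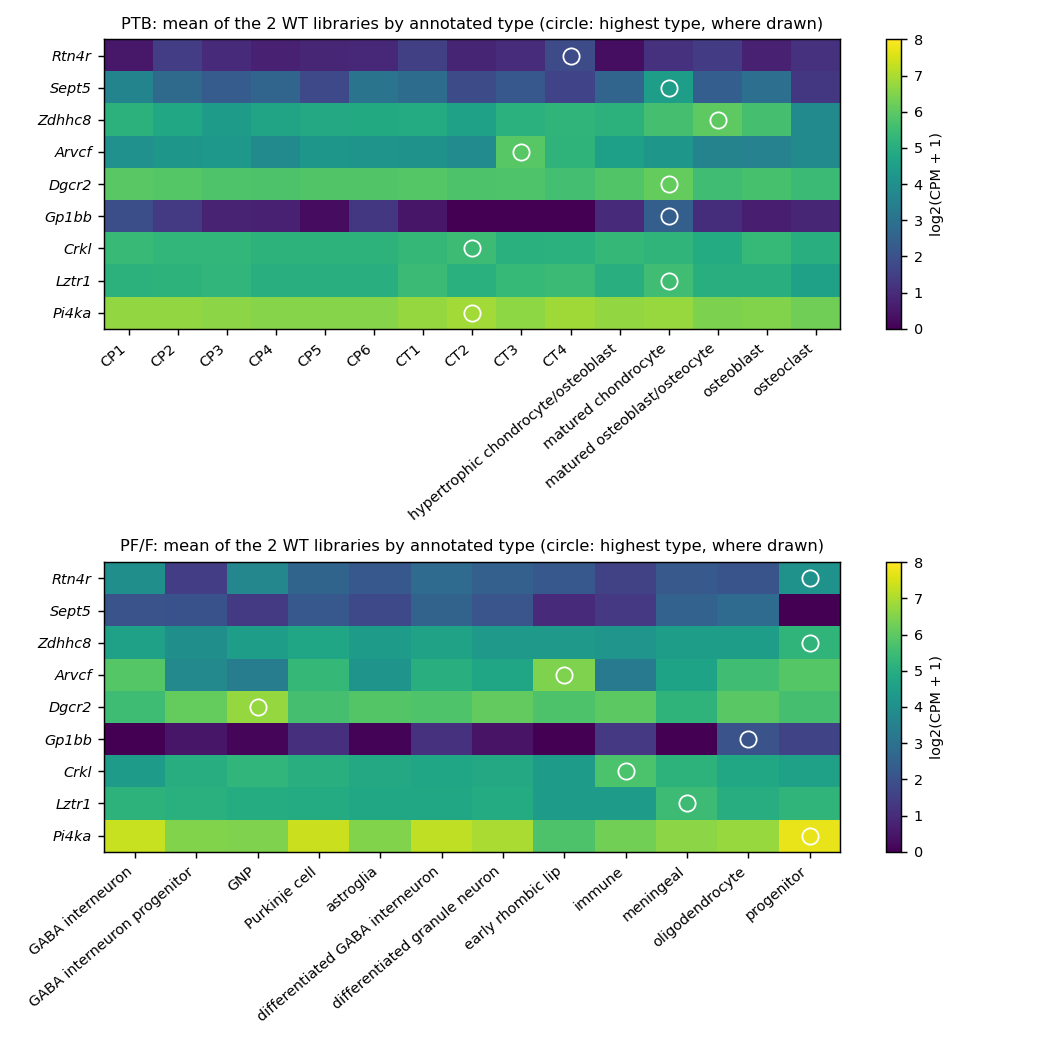
Mean WT level of each gene (rows) in the annotated cell types reported here (columns) of PTB and PF/F, as colour on a log2(CPM + 1) scale, with a circle on the highest type of a row where that type is drawn; the values are not per length, so rows are not comparable with each other. Zdhhc8 has its circle in matured osteoblast/osteocyte nuclei (64.2 CPM), Arvcf in CT3 (59.2 CPM) and early rhombic lip (86.8 CPM), and Dgcr2 in GNP (105.1 CPM).

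Of the receptors, Rtn4r was highest in 3 types of PF/F. The progenitor type read 16.9 and 14.7 CPM in WT 1 and WT 2 and 30.4 and 10.8 CPM in Tbx1+/-, from 8 WT UMIs. GABA interneurons read 16.8 and 12.8 CPM, and granule neuron progenitors (GNP), the dividing cells that give rise to granule neurons, read 15.1 and 8.73 CPM from 148 WT UMIs. The 3 types overlapped each other, and GNP was apart from the next type in all 4 libraries. GNP was not apart from every lower type, since Purkinje cells of Tbx1+/- 2 lay above GNP of WT 2. The first place of the progenitor type did not hold without the 8% of nuclei richest in UMIs, where its level was 0. GABA interneuron progenitors came last with 1.07 and 2.37 CPM. In bone Rtn4r was near the limit of counting, and its highest type, CT4, rested on 5 WT UMIs (2.14 and 2.93 CPM).

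The genes that act with Rtn4r were listed as its ligands Rtn4, Mag and Omg, its co-receptors Lingo1, Ngfr and Tnfrsf19, and its relatives Rtn4rl1 and Rtn4rl2. Of these 8 genes, 6 were higher in PF/F and 2 in PTB by the tissue test (39.8% and 36.9% of all genes tested), with a median log2 change of 1.11. Lingo1 had the largest rise (log2 change 3.33, SE 0.144, adjusted p = 4.17e-08) and reached 169.1 and 113.6 CPM in the progenitor type. The myelin ligands Mag (101.1 and 50.5 CPM) and Omg (33.9 and 41.8 CPM) were highest in oligodendrocytes. Tnfrsf19, a co-receptor related to Ngfr, went the other way (log2 change -3.15, SE 0.0853, adjusted p = 2.89e-09) and was highest in CP1, at 289.7 and 327.6 CPM.

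Dgcr2 was highest in GNP, at 93.9 and 116.4 CPM in WT and 102.4 and 113.9 CPM in Tbx1+/-. All 4 of these libraries lay above every library of the other 13 types, whose highest value was 83.5 CPM. Meningeal nuclei came last with 34.2 and 37.6 CPM. In bone its levels were flat: the highest type, matured chondrocyte (66.8 and 68.0 CPM), was 1.59 times the lowest, osteoclast (42.2 and 42.6 CPM), and in Tbx1+/- the former read 36.0 and 58.4 CPM.

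Gp1bb gave few UMIs in every type. In bone, matured chondrocytes read 6.26 and 2.43 CPM from 4 WT UMIs, and CP1 read 2.44 and 3.06 CPM from 18. CP1 was apart from the next type, CP2, in all 4 libraries. In PF/F, oligodendrocytes read 1.56 and 4.73 CPM from 9 UMIs, and GABA interneurons gave 0 UMIs in all 4 libraries. Gp1bb and Sept5, whose exons overlap, had a Pearson correlation on log levels of 0.82 over the 15 bone types and of -0.07 over the 14 cerebellar types, in each case types of the same libraries. The platelet partners Gp1ba, Gp9 and Gp5 were too low to be tested between tissues, and Vwf, their ligand, did not pass (log2 change -0.16, SE 0.338, adjusted p = 0.684).

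Arvcf, the cadherin-binding catenin, had sharp maxima in both tissues. In bone, CT3 read 50.5 and 67.9 CPM in WT and 60.8 and 88.6 CPM in Tbx1+/-, with all 4 libraries above all libraries of the other types. CT4 came next with 27.8 and 43.9 CPM, and osteoblasts came last with 11.8 and 9.40 CPM, 5.57 times below CT3. In PF/F, early rhombic lip nuclei, a group named after the germinal zone of the dorsal hindbrain, read 91.0 and 82.6 CPM in WT and 61.1 and 61.1 CPM in Tbx1+/-. The WT libraries were apart from GABA interneurons (56.6 and 60.8 CPM), whereas over all 4 libraries the types overlapped. GNP read 10.6 and 8.22 CPM and immune nuclei 6.03 and 11.6 CPM, the lowest.

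By the rule that names the 3 genes whose WT levels over types correlated best with a member, Arvcf gave Sord (r = 0.89), Acta2 (r = 0.88) and Tpm2 (r = 0.87) over the 15 bone types and Gm4924 (r = 0.91) over the 14 cerebellar types. Over the Tbx1+/- libraries Sord (r = 0.83) and Gm4924 (r = 0.88) were again among the 3 best. These were the only genes of 27 in each tissue that stayed among the best 3. For Zdhhc8 in bone the best were Shisa4 (r = 0.94), 2310022B05Rik (r = 0.92) and Bmp2 (r = 0.91), and for Pi4ka in PF/F they were Fam168a (r = 0.95), Zfp846 (r = 0.95) and Kif5a (r = 0.95). The largest fall was that of Srebf1 for Gp1bb in bone, from r = 0.87 in WT to -0.25 in Tbx1+/-, on a member averaging 1.03 CPM. The points are types of the same libraries and share their depth.

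Of the 7 catenins and cadherins listed with Arvcf, 5 were lower in PF/F (36.9% of all genes tested) and 1 higher (39.8%). Ctnnd2, the neural member of the p120 family, was the higher one (log2 change 1.69, SE 0.133, adjusted p = 2.58e-06). Cdh1 (log2 change -5.07, SE 0.263, adjusted p = 1.4e-07), the epithelial cadherin, and Cdh11 (log2 change -2.74, SE 0.144, adjusted p = 1.54e-07), the osteoblast cadherin, were lower. Cdh11 was highest in CT3, at 2809 and 3119 CPM, where Arvcf was highest too, and the other 6 were highest in other bone types. Cdh2, the neural cadherin, was highest in osteoblasts (1861 and 2115 CPM), the lowest type for Arvcf.

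Sept5 was highest in bone in matured chondrocytes, at 25.0 and 17.0 CPM in WT and 12.0 and 16.4 CPM in Tbx1+/-, from 19 WT UMIs. All 4 libraries lay above those of every other type, though the lowest exceeded the next type's highest by little (11.99 against 11.87 CPM). CP1 followed with 10.7 and 11.9 CPM and CP6 with 7.89 and 6.95 CPM, each apart from the next in WT. Osteoclasts came last with 2.09 and 0.775 CPM, 14.7 times below matured chondrocytes. In PF/F oligodendrocytes, among the leading types, read 6.25 and 5.52 CPM and overlapped their neighbours in the order. Of the 9 other septins, 2 were higher in PF/F (39.8% of all genes tested) and 4 lower (36.9%). Sept3, a neuronal septin, rose most (log2 change 5.24, SE 0.172, adjusted p = 8.09e-09). Sept9 fell by 2.71 on the log2 scale (SE 0.0801, adjusted p = 4.59e-09) and was highest in CT4, at 181.9 and 242.2 CPM.

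Zdhhc8, the palmitoyltransferase, was highest in bone in the most mature osteoblast-lineage nuclei. Matured osteoblast/osteocyte nuclei read 63.0 and 65.4 CPM in WT and 70.2 and 63.8 CPM in Tbx1+/-, above every library of the other 14 types. Osteoblasts (49.9 and 48.9 CPM) and matured chondrocytes (52.2 and 46.1 CPM) came next and overlapped. Osteoclasts, the bone-resorbing cells of the blood lineage, were lowest at 14.6 and 11.23 CPM, 4.96 times below the top. In PF/F the progenitor type led in WT with 29.6 and 44.0 CPM but read 0 and 33.9 CPM in Tbx1+/-, and over all 4 libraries Purkinje cells (23.2 and 28.3 CPM in WT) had the highest mean. GABA interneuron progenitors were near the low end, at 12.3 and 17.4 CPM.

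Of the 8 other palmitoyltransferases listed, 5 were lower in PF/F (36.9% of all genes tested) and 2 higher (39.8%), with a median log2 change of -0.26. Zdhhc14 was lower (log2 change -0.75, SE 0.105, adjusted p = 0.000136) and was highest in matured osteoblast/osteocyte nuclei (824 and 939.4 CPM), as Zdhhc8 was in bone, while the other 7 were highest in other bone types. Zdhhc2 was higher (log2 change 1.20, SE 0.0771, adjusted p = 6.23e-07) and was highest in the progenitor type (97.2 and 113.6 CPM).

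Pi4ka was highest in PF/F in the progenitor type, followed by 3 neuron types. The progenitor type read 207.1 and 219.9 CPM in WT and 251.0 and 183.2 CPM in Tbx1+/-, apart from the rest in WT but not over all 4 libraries. Purkinje cells read 149.5 and 179.5 CPM, GABA interneurons 160.8 and 161.5 CPM, differentiated GABA interneurons 136.7 and 164.1 CPM, and differentiated granule neurons 122.8 and 127.3 CPM. GNP, from which granule neurons arise, read 79.1 and 94.3 CPM, below differentiated granule neurons in both WT libraries. Early rhombic lip nuclei came last with 66.9 and 40.4 CPM. Arvcf was highest in that type and Pi4ka lowest. In bone Pi4ka ranged by 1.57 times, from CT2 (112.0 and 125.2 CPM) to osteoclasts (72.7 and 77.9 CPM).

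Of the 9 genes listed with Pi4ka, which hold its membrane scaffold and the other phosphatidylinositol 4-kinases, 6 were lower in PF/F (36.9% of all genes tested) and 2 higher (39.8%). The scaffold paralogs differed in direction. Efr3b was higher in PF/F (log2 change 2.46, SE 0.0685, adjusted p = 3.32e-09) and highest in differentiated GABA interneurons (152.3 and 148.9 CPM). Efr3a was lower (log2 change -1.02, SE 0.0921, adjusted p = 6.52e-06) and highest in CT3 (197.5 and 256.3 CPM). Ttc7, also of the scaffold, had the largest fall of the list (log2 change -3.47, SE 0.192, adjusted p = 2.23e-07).

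**Figure D3:**
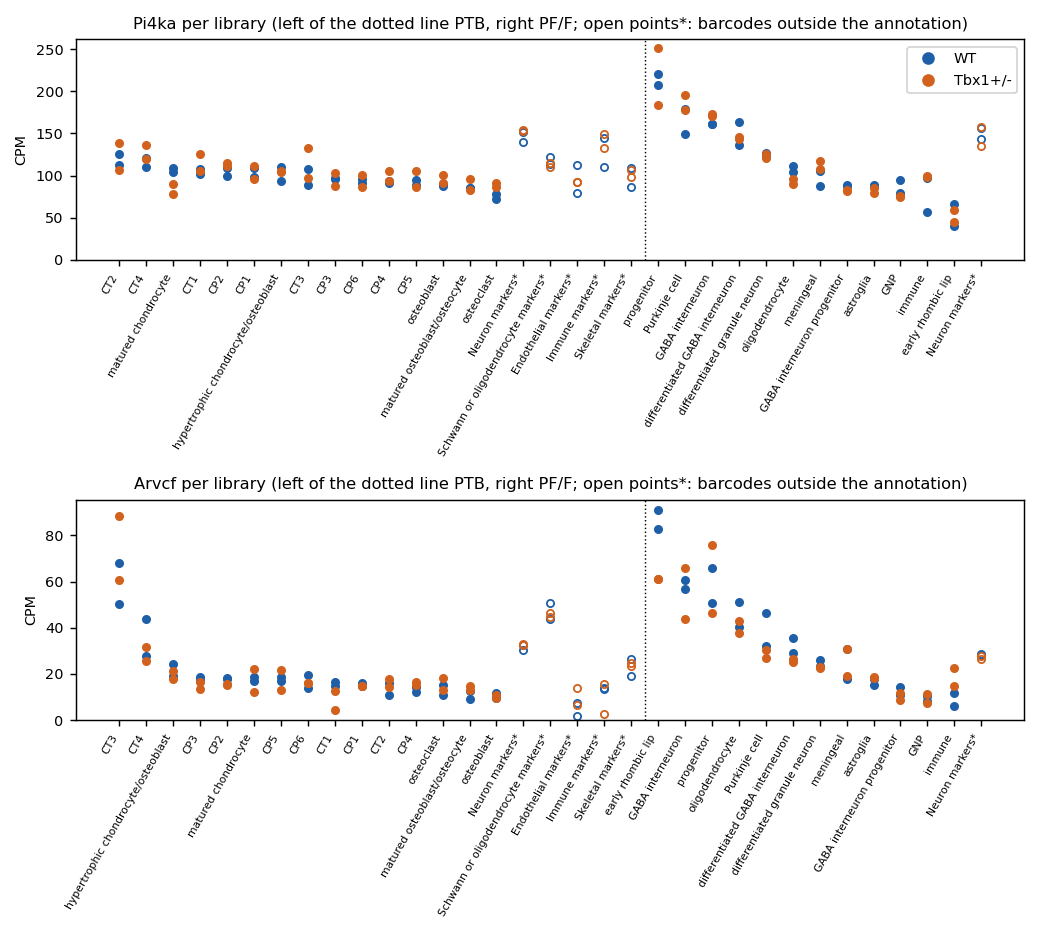
Levels of Pi4ka and Arvcf in CPM in the cerebellar and bone types reported here and in barcodes outside the annotation grouped by marker genes, with 1 point per library. Pi4ka lies between 140.2 and 153.5 CPM in neuron-marker barcodes of bone, and Arvcf between 43.9 and 50.7 CPM in Schwann or oligodendrocyte-marker barcodes.

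Of the signalling genes, Crkl was highest in immune nuclei of PF/F, at 51.3 and 54.2 CPM in WT and 35.9 and 42.4 CPM in Tbx1+/-, from 31 WT UMIs. Immune nuclei were apart from the next type in WT, and early rhombic lip nuclei were last with 20.4 and 20.2 CPM. In bone no neighbouring types were apart, and the order ran from CT2 (55.6 and 31.8 CPM) to matured osteoblast/osteocyte nuclei (31.1 and 27.7 CPM). Of 7 adaptor partners, 6 were lower in PF/F (36.9% of all genes tested) and 0 higher (39.8%). Dock1, an activator of RAC bound by CRK proteins, fell by 2.03 on the log2 scale (SE 0.0875, adjusted p = 4.08e-08), and Crk, the paralog, by 0.86 (SE 0.064, adjusted p = 1.77e-06).

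Lztr1 had 0 neighbouring types apart in PF/F. Meningeal nuclei led with 30.6 and 57.4 CPM and immune nuclei were last with 21.1 and 19.4 CPM. In bone, matured chondrocytes (50.1 and 41.3 CPM) led and osteoclasts (23.4 and 22.5 CPM) were last and apart from the type before them, osteoblasts, in all 4 libraries. Matured chondrocytes read as low as 24.0 CPM in Tbx1+/-. By the mean of all 4 libraries, CT1 led in bone and GABA interneurons led in PF/F. Of the 7 listed partners of Lztr1, 6 were lower in PF/F (36.9% of all genes tested) and 1 higher (39.8%). Nras fell by 0.54 on the log2 scale (SE 0.0628, adjusted p = 3.83e-05), while Hras was higher (log2 change 0.66, SE 0.213, adjusted p = 0.0183). Osteoclasts were the lowest bone type for Sept5, Zdhhc8, Dgcr2, Lztr1 and Pi4ka. Among the other 27 tested genes of the same chromosomal stretch, 11 were higher in PF/F and 8 lower, close to the 39.8% and 36.9% over all genes tested. Changes ran from Lrrc74b (log2 change 2.15, SE 0.246, adjusted p = 3.46e-05) to Scarf2 (log2 change -5.21, SE 0.136, adjusted p = 2.45e-09).

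The second comparison asked whether the neighbours of Tbx1 changed when 1 copy of Tbx1 was lost. Over all annotated nuclei, 0 of 9 genes were called in either tissue at an adjusted p under 0.05 and more than 1.5-fold (edgeR), 0 of 9 had an unadjusted p under 0.05, and DESeq2 called 0. The background was 0.0% called in each tissue and 1.07% (PTB) and 0.477% (PF/F) at the unadjusted threshold. Log2 changes (Tbx1+/- over WT) ran from -0.09 for Lztr1 to 0.36 for Gp1bb in bone, with a median of 0.05 against -0.00 over all genes. In PF/F they ran from -0.16 for Zdhhc8 to 0.21 for Rtn4r, with a median of -0.00 against 0.00. In these sums a shift in cell types and a change per cell cannot be told apart. The paper reports fewer chondrocytes relative to osteoblasts in Tbx1+/- bone.

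The intervals show what size of change these libraries could bound. Loss of 1 copy of a gene would give a log2 change of -1 if its RNA followed its copy number. In bone the 95% interval lay above -1 for 9 of 9 genes, and in PF/F for 8 of 9, with Gp1bb as the exception (log2 change -0.00, interval -1 to 0.995). The bone interval of Tbx1, which has 1 disrupted copy, also lay above -1 (log2 change -0.34, interval -0.765 to 0.0841). An interval above -1 therefore does not separate a gene with 1 disrupted copy from a gene with both intact in these counts. Pi4ka had the narrowest interval in bone (log2 change 0.07, SE 0.0897, interval -0.16 to 0.295). Crkl had the narrowest in PF/F (log2 change 0.01, SE 0.101, interval -0.243 to 0.273). Rtn4r (0.18, interval -0.599 to 0.962) and Gp1bb (0.36, interval -0.607 to 1.32) had wide ones in bone. A p that misses the threshold does not show that the genotypes were alike.

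**Figure D4:**
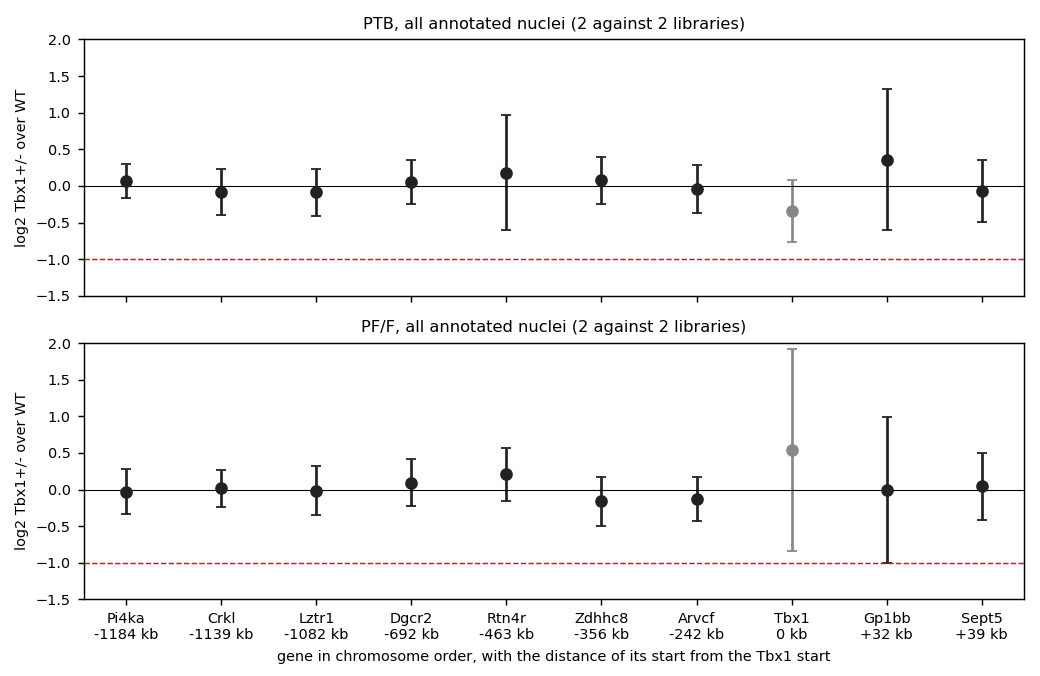
Log2 change of each gene, Tbx1+/- over WT, in PTB and PF/F over all annotated nuclei, with the 95% interval of the edgeR fit (2 libraries per group); Tbx1 is drawn in grey and the dashed red line marks a log2 change of -1. The point estimates of the 9 genes lie between -0.16 and 0.36, and of these genes the interval of Gp1bb in PF/F alone reaches -1.

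Tbx1 was highest in chondrocyte progenitors (77.9 and 96.6 CPM in CP6 of WT). Within the 15 bone types it was lower in Tbx1+/- in both batches in 8 and higher in both in 0. Over all genes and types of both tissues, 24.6% were lower in both and 23.9% higher. The paper reports significantly less Tbx1 in the main bone populations of Tbx1+/- mice. Summed over CP1 to CP6, 0 of 9 genes were called, and their log2 changes ran from -0.15 for Lztr1 (interval -0.51 to 0.207) to 0.27 for Rtn4r (interval -0.998 to 1.54). Summed over CT1 to CT4, 0 of the 8 genes with enough counts were called, and the changes ran from -0.06 for Lztr1 (interval -0.423 to 0.309) to 0.11 for Arvcf (interval -0.747 to 0.972). The background was 0.0% in both sums.

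Within batches, Rtn4r was the gene that was higher in Tbx1+/- in both batches of both tissues. In bone this direction turned with nuclei of at least 2000 genes (log2 change -0.0296) and without Tbx1+/- 2 (-0.0761). Within single types, 0 of 30 batch ratios of Rtn4r in bone and 3 of 28 in PF/F lay past counting error. The other members ran from 0 (Sept5) to 7 of 30 (Crkl) in bone. In PF/F they ran from 0 (Sept5) to 4 of 28 (Pi4ka), and the share over all genes was not counted. The share of all genes that were higher in both batches of both tissues was not counted. Over the members, 3 of 9 were higher in both batches (background 23.9%) and 0 lower (26.0%) in bone, and 2 were higher (19.8%) and 4 lower (27.7%) in PF/F. In PF/F the Rtn4r libraries read 5.86 and 5.44 CPM in WT and 6.62 and 6.28 CPM in Tbx1+/- without overlap (log2 change 0.21, SE 0.142, interval -0.154 to 0.57, adjusted p = 1). Zdhhc8 was higher in both batches in bone and lower in both in PF/F, where its libraries did not overlap (19.3 and 20.8 against 16.3 and 19.1 CPM, log2 change -0.16, SE 0.131, adjusted p = 1). The PF/F value was -0.0619 without Tbx1+/- 1 and -0.281 without Tbx1+/- 2, and the bone value turned to -0.0263 without Tbx1+/- 1. Arvcf was lower without overlap in PF/F (26.3 and 23.4 against 22.0 and 22.7 CPM, log2 change -0.13, SE 0.118, adjusted p = 1), and its log2 change was -0.0399 without WT 1 and -0.222 without WT 2. So 3 of 9 genes did not overlap in PF/F and 0 of 9 in PTB, where the background was 17.9% and 23.2% of all genes tested. A difference of the genotype change between tissues, tested as an interaction, was called for 0 of 9 genes and 0.0% of 22148 tested (edgeR), with 0 of 9 at an unadjusted p under 0.05 (0.899% of all), and ran from -0.37 for Gp1bb to 0.11 for Sept5.

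The same test was run within each cell type, which gave 185 gene-by-type results over 29 types. Of these, 0 were called (0.000287% of 348721 over all genes), and 4 (2.16%) had an unadjusted p under 0.05 against 1.58% over all genes. By tissue this was 0 of 96 in PTB (background 1.81%) and 4 of 89 in PF/F (4.49%, background 1.32%). The adjusted p of all 4 was 1, and 3 of them are described here. Dgcr2 in meningeal nuclei read 34.2 and 37.6 CPM in WT and 62.2 and 63.2 CPM in Tbx1+/- (log2 change 0.81, SE 0.299). The 3 endothelial markers checked there, Flt1, Pecam1 and Cdh5, summed to 118.8 and 77.2 CPM in WT and 82.5 and 102.9 CPM in Tbx1+/-. Endothelial nuclei read 2432 to 3330 CPM. The meningeal sum was mostly Cdh5, which overlapped between genotypes, and the endothelial sum mostly Flt1. Flt1 read 16.2 and 13.9 CPM in WT meningeal nuclei against 8.12 and 8.68 CPM in Tbx1+/-. Pecam1 went the other way, at 0 and 1.98 against 5.41 and 6.20 CPM. These rest on few UMIs, and a part of endothelial RNA in the Dgcr2 difference was not tested. Rtn4r in Purkinje cells read 5.05 and 4.79 CPM against 7.50 and 10.5 CPM (log2 change 0.94, SE 0.398, and 0.595 without Tbx1+/- 2). For Dgcr2 and Rtn4r in these types each Tbx1+/- library lay above its WT partner. So did 24.7% of all genes in meningeal nuclei and 21.5% in Purkinje cells, where 0.00778% of genes were called. Zdhhc8 in GNP read 21.8 and 19.7 CPM against 15.1 and 15.5 CPM (log2 change -0.42, SE 0.166). For Zdhhc8 each Tbx1+/- library lay below its WT partner, as did 27.9% of all genes in GNP.

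Libraries of the genotypes did not overlap in 62 of the 185 results (33.5%, background 25.6%), of which 28 were higher and 34 lower in Tbx1+/-. By tissue this was 30.2% in PTB (background 26.7%) and 37.1% in PF/F (background 24.3%). Arvcf was lower in both batches in 10 of the 27 types tested and higher in 4, and Lztr1 in 10 and 4 of 28, against a background of 24.6% lower and 23.9% higher. For Dgcr2 the counts were 4 lower and 7 higher of 29. Gp1bb had enough counts to be tested in 1 type, differentiated granule neurons (log2 change 1.06, adjusted p = 1), and Rtn4r in 5. The results for one gene in different types share libraries and are not independent.

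**Figure D5:**
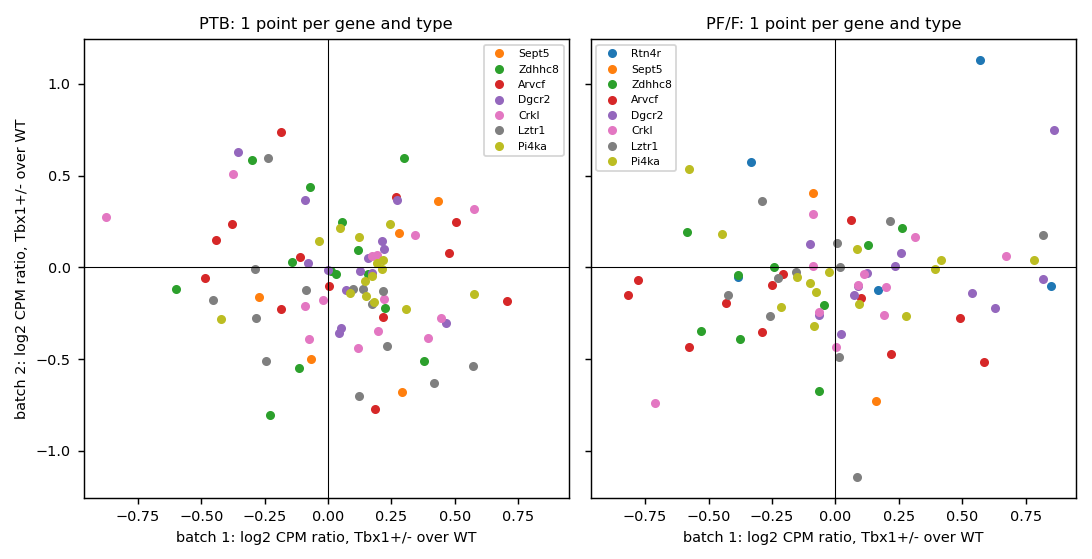
Log2 ratio of Tbx1+/- to WT in batch 1 (x axis) against batch 2 (y axis), each point 1 of the 9 genes in 1 cell type with at least 10 UMIs in every library, for PTB (89 points) and PF/F (76 points). In PTB 51 points and in PF/F 35 points lie in the quadrants where the batches have opposite signs.

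The comparison between batches shows how far these ratios repeated. In bone, 21 of 89 ratios were higher in both batches, 17 lower in both and 51 opposite. In PF/F, 15 of 76 were higher in both, 26 lower in both and 35 opposite. Over all genes tested in the types of both tissues, 23.9% were higher in both and 24.6% lower in both. That share covers genes past the test's count filter, which differs from the 10 UMIs used for these ratios. Of the 59 listed partner genes, 57 were tested between genotypes in PTB and 56 in PF/F, as were 27 of the 30 other genes of the chromosomal stretch in each tissue. Of those tested, 0 were called by edgeR or DESeq2 (edgeR background 0.0%) and 0 had an unadjusted p under 0.05 (background 1.07% in PTB and 0.477% in PF/F).

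A further 32101 bone barcodes and 9721 cerebellar barcodes carried no annotation, and most of the bone ones (26350) had at least 3 UMIs of skeletal markers. These barcodes include ones that the study's quality filters removed. The bone ones also include nuclei that the study kept, since its full bone atlas held immune cells and neurons. Free RNA was not corrected here, so a marker group need not be a cell type. Intervals here cover counting error only. In 2356 bone barcodes with neuron markers Pi4ka read 150.4 CPM (3617 UMIs, exact 95% interval 146 to 155) and ran from 140.2 to 153.5 CPM over the 4 libraries. The highest library of any annotated bone type was 138.7 CPM. In the 3556 neuron-marker barcodes of PF/F it read 147.8 CPM (interval 143 to 153). Rtn4r read 3.54 CPM (interval 2.82 to 4.37) in the neuron-marker barcodes of bone against 1.23 CPM (interval 1.02 to 1.46) in the skeletal ones.

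In the 1227 bone barcodes with Schwann or oligodendrocyte markers, Arvcf read 46.2 CPM (libraries 43.9 to 50.7) and Zdhhc8 56.7 CPM (libraries 39.7 to 66.9). In the 651 endothelial-marker barcodes Arvcf read 6.43 CPM (libraries 1.81 to 14.0), below every annotated bone type in the mean. Gp1bb was looked for in its own lineage: 4 bone barcodes had megakaryocyte markers, among them 2 Gp1bb UMIs in 2 barcodes, 1 in each of the batch 1 libraries, beside 16 UMIs of Gp1ba. Its level there was 54.0 CPM in WT 1 (95% exact Poisson interval 1.37 to 301, counting error only) and 95.6 CPM in Tbx1+/- 1 (2.42 to 533), and 0 in the 1 barcode of Tbx1+/- 2 (interval up to 402.8). WT 2 and the PF/F libraries had 0 such barcodes. Each value rests on at most 1 Gp1bb UMI.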

How the data were processed

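Nuclei were isolated from pooled frozen tissue (5 mice per library) and sequenced with 10x Chromium chemistry. The deposited values were whole-number counts of UMIs per gene and filtered barcode. Per the labels and methods, reads were aligned to mm10 and counted, introns included, by Cell Ranger 7.0.0. The values hold no correction for free RNA, which the authors removed at a later step. Cell types were taken from the deposited annotation, for which the authors had filtered nuclei by gene number and clustered, transferred and curated labels; how doublets were treated beyond those filters is not given in the sources used here.

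From these files, UMIs were summed per library over all annotated nuclei and over each type with at least 20 nuclei in every library. Levels are CPM of the summed nuclei. Genotype and tissue were tested with edgeR 4.0.16 (quasi-likelihood, filterByExpr, TMM, R 4.3.3) over all genes, with Benjamini-Hochberg adjustment. A genotype call needed an adjusted p under 0.05 and more than 1.5-fold, and a tissue call needed the adjusted p. Intervals come from the t distribution of each gene's fit. The tissue fit used 8 libraries; by the study's methods both tissues were taken from the mice of each genotype, so bone and cerebellar libraries may share mice, which this fit leaves out of account. The code was tested on simulated data. Within a type, members were named at both ends of their order, and the 3 genes most like a member were those with a mean of at least 5 CPM and the highest Pearson correlation of log2(CPM + 1). The members and gene lists were chosen with earlier results of these data known. Genes of the partner and interval lists were named where they passed a threshold or stood at the ends of their list's range, and the choice among those past the threshold was made after their values were seen.

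The study's methods describe separate batches of animals, and the library number was taken as the batch, which neither the labels nor the methods state. Alternatives were the replicate block, DESeq2 1.42.0, its size factors, no filter on low counts, nuclei with at least 2000 genes, leaving out the 8% of nuclei highest in UMIs, and leaving out each library. Barcodes outside the annotation were grouped by 9 marker lists, with at least 3 marker UMIs. p-values measure the spread between pools of animals. Some items that were analysed are not reported here, although they remain in the counts over types.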

Additional observations from a re-analysis of the deposited data

Results flagged for a closer look

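Zdhhc8 was marked because its genotype difference pointed opposite ways in the 2 tissues: over all annotated nuclei, Tbx1+/- was above WT in both batches of PTB (37.7 against 35.0 and 32.7 against 31.6 CPM) and below WT in both batches of PF/F (16.3 against 19.3 and 19.1 against 20.8 CPM). The tested interaction was -0.244 on the log2 scale (SE 0.206, adjusted p = 1, edgeR), which did not pass the threshold. Zdhhc8 was highest in matured osteoblast/osteocyte nuclei, and the paper reports fewer chondrocytes relative to osteoblasts in Tbx1+/- bone. In the bone sum a shift in cell types and a change per cell cannot be told apart. Within the 15 bone types Zdhhc8 was lower in both batches in 4 and higher in both in 3.

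Pi4ka was marked because of barcodes that the deposited bone annotation leaves out. The study's own bone atlas included neurons, and barcodes removed by its filters are also among those left out. The 2356 bone barcodes with neuron markers read 150.4 CPM of Pi4ka (150.5 CPM with at least 5 marker UMIs), above the highest library of every annotated bone type. Over the 4 bone libraries these barcodes ran from 140.2 to 153.5 CPM, and the neuron-marker barcodes of PF/F read 147.8 CPM.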

How the results depend on the processing

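Over the alternatives, 515 values were compared, among them log2 changes, levels and counts. Of these, 475 were unchanged, 24 changed sign, 8 fell short of a threshold they had passed, 2 passed one and 6 moved. For log2 changes, unchanged means the same direction and side of the threshold. Levels and counts have no direction and were judged by size alone. Levels that moved past the spread between libraries were Rtn4r in the progenitor type, Arvcf in early rhombic lip and Gp1bb in oligodendrocytes. Counts that moved were those of highest bone types and most-like genes kept. No genotype result was called under any alternative. The sign changes were among genotype changes, the widest of them that of Gp1bb in PTB, at 0.36 in the fit reported. With nuclei of at least 2000 genes, the log2 change became -0.0296 for Rtn4r in PTB, and 0.0429 for Lztr1 and 0.0143 for Pi4ka in PF/F. Without the 8% of nuclei highest in UMIs it became -0.0261 for Sept5 and 0.201 for Gp1bb in PF/F. The cause was not tested. Leaving out each library in turn gave PTB log2 changes from -0.0761 to 0.415 for Rtn4r, -0.0263 to 0.182 for Zdhhc8, -0.145 to 0.0581 for Arvcf, -0.0534 to 0.161 for Dgcr2, -0.183 to 0.742 for Gp1bb, -0.213 to 0.0486 for Crkl and -0.222 to 0.0434 for Lztr1. In PF/F it gave -0.0543 to 0.152 for Sept5, -0.0236 to 0.221 for Dgcr2, -0.371 to 0.454 for Gp1bb, -0.0123 to 0.0391 for Crkl, -0.122 to 0.0975 for Lztr1 and -0.0916 to 0.035 for Pi4ka. A lone library left in a group was assumed to vary like the others. In single types, 2 to 4 of 181 genotype changes changed sign with another fit, 22 of 169 with nuclei of at least 2000 genes, and 21 of 168 without the 8% of nuclei highest in UMIs. Leaving out 1 library turned the sign of 17 to 22 of 96 in PTB and 16 to 18 of 85 in PF/F.

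Same-numbered WT and Tbx1+/- libraries deviated together (correlation of deviations 0.478 in PTB over 20250 genes and 0.55 in PF/F over 20756). With the replicate block, Lztr1 passed the tissue test (log2 change -0.158, adjusted p = 0.0357), and the pairing changed no other call. Between tissues, 3 to 4 members were higher and 4 to 5 lower in PF/F over the alternatives. Ordering types by all 4 libraries kept the highest bone type for 5 of 9 members, and ranking likeness on Tbx1+/- libraries kept 1 of 27 most-like genes in each tissue. Depth limited Gp1bb and Rtn4r in bone and the cerebellar progenitor type, whose levels rest on few UMIs.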
